A study of Homo sapiens with 5 samples.

Results

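Processed pseudogenes of the cytosolic ribosomal proteins are genomic copies of ribosomal protein mRNAs, and they were examined here as a group in TF-1 cells, a human acute myeloid leukemia cell line. Members were selected on their counts. They were the genes annotated as processed pseudogenes whose symbol is a ribosomal protein symbol followed by P and a number, with at least 100 counts summed over the 5 libraries. Of 1029 such pseudogenes in the count table, 244 were members, out of 27328 genes in all. Their 70 parent genes, which are the functional ribosomal protein genes named in the symbols, were each in the table. Because the minimum was set on the counts themselves, the levels that made a pseudogene a member are a description and not a finding. The 2 control libraries came from TF-1 pools sgCtrl 1 and 2, in which the sgRNA is directed against *Renilla luciferase*. For the *MTSS1* knockout, 3 pools were available, made with sgMTSS1_1, sgMTSS1_2, and sgMTSS1_3. The authors had discarded another pool of each group as an outlier (not analysed here), so that the spread between replicates is that of the retained pools. Every pool combined 4 clones grown from single cells, so that each knockout replicate carries its own sgRNA and a replicate is a pool of few clones. Whether the pools were grown separately is not given, and p-values measure the spread between these 5 libraries only.

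A processed pseudogene arises when an mRNA is copied into DNA by reverse transcription and inserted elsewhere in the genome. The copy lacks introns, usually lacks the promoter of its parent, and collects base changes with age. Ribosomal protein genes, which are strongly transcribed in most cells, have left more such copies in the human genome than most gene families. A sequencing read from an old copy can be told from a read of the parent by these changes, whereas a read from a recent copy often cannot.

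Total counts were 2849979 and 3408827 in the control libraries, against 5442639 to 8854899 in the knockout libraries, and condition was thereby tied to depth, so that these cannot be told apart from the totals. A level of 3 counts corresponds to between 0.389 and 0.938 CPM (counts divided by library size after correction with TMM factors from edgeR). The mRNA of the targeted gene *MTSS1* overlapped between the groups, at 87.9 and 204 CPM in the control, against 49.9 to 139 CPM in the knockout pools (log2-fold change −0.58 ± 0.47 SE, edgeR adjusted p = 0.494). Its level was thus no check of the labels. The authors had verified the knockout in the pooled clones by immunoblot, which measures protein. *GATA1*, an erythroid transcription factor, was at 56.4 to 110 CPM and *CD33*, a myeloid surface protein, at 103 to 138 CPM, whereas the epithelial gene *EPCAM*, the fibroblast gene *COL1A1*, and the liver gene *ALB* did not exceed 0.696 CPM in any library. As these are bulk libraries, fewer cells with a transcript and less of it per cell cannot be told apart.

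Members were nearly identical to their parents more often than pseudogenes with few counts. Over the bases that aligned to the parent's spliced transcript, members had a median identity of 94.8%, compared with 91.5% in the 785 candidates below the minimum. Identity of at least 99% was found in 32 members (13.1%) and in 7 of the other candidates (0.892%). The median length was 474 bases in members and 483 bases in the other candidates. For 240 of the 244 members, the named parent was also the ribosomal protein transcript with the best alignment. Across the 244 members, which share libraries and parents, identity and summed counts had a Spearman's rho of 0.22 and identity and log10 counts a Pearson's r of 0.17, given as a description. The plot of identity shows the members shifted towards the parent sequence.

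**Figure D1:**
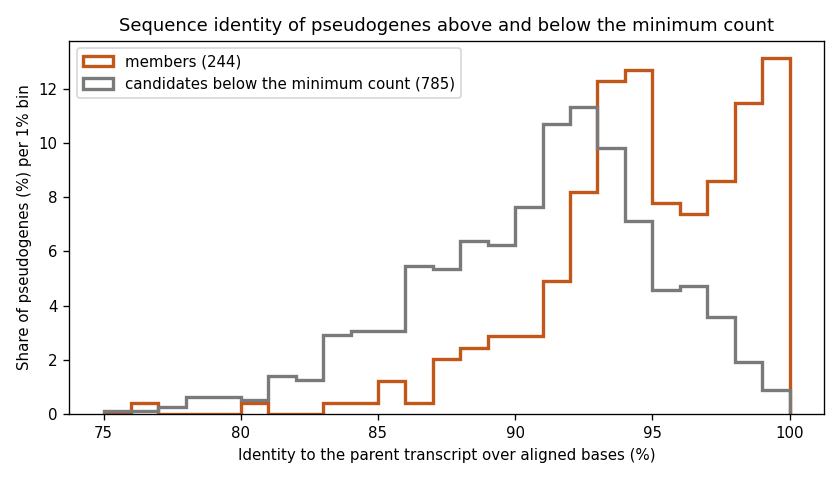
Share of pseudogenes in percent (y axis) in each 1% bin of identity to the parent transcript over aligned bases (x axis), for 244 members and 785 candidates below the minimum count. The median was 94.8% in members and 91.5% in the other candidates, and members form a peak in the bin from 99 to 100%.

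The length of a read, 50 bases, was used to ask where reads of these sequences can be placed. Every stretch of 50 bases of each pseudogene was looked up in the whole GRCh38 sequence and in the spliced transcripts of its parent. In 70 members (28.7%), at least 1 such stretch was identical to the spliced parent mRNA and yet occurred at a single place in the genome, namely in the pseudogene, because the parent gene has an intron inside it. This was the case in 19 of the 785 candidates below the minimum (2.42%). The 70 members held 47.4% of all member counts, with a median of 493.5 summed counts, against 260.0 in the other 174 members. An aligner must split such a read over an intron to place it in the parent gene, while the pseudogene takes it whole. How HISAT2 placed them, and how many reads of these 3′ end libraries cover such a stretch, were not tested. In 5 members, no stretch of 50 bases occurred at a single place. The following stretches are examples from 4 of the members with the highest counts. The capitals mark the last base of one parental exon and the first base of the next.
RPS23P8: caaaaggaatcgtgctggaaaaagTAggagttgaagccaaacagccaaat
RPS18P5: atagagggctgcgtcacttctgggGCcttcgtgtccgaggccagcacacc
RPS7P1: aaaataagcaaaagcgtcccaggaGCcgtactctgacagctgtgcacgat
RPL3P4: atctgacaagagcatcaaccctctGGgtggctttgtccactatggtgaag
The stretch of *RPS23P8* lies at chrX:70963001-70963050 on the plus strand of GRCh38 and spans the border of exons 2 and 3 of *RPS23*. That of *RPS18P5* (chr3:101576540-101576589, minus strand) spans exons 5 and 6 of *RPS18*, that of *RPS7P1* (chr17:28468153-28468202, plus strand) exons 5 and 6 of *RPS7*, and that of *RPL3P4* (chr14:98973115-98973164, minus strand) exons 7 and 8 of *RPL3*. All 4 stretches are coding sequence in the parent.

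The parents were limited in the same way. Of the 50-base stretches of the coding sequence of a parent, a median of 39.2% occurred at 1 place in the genome (range 0 to 74.1%), and in 9 of the 70 parents less than 10% did. The remainder is not all sequence with several places, since a stretch across an exon border of the parent can occur at no place or only in a copy. In *RPS26*, a protein of the small subunit at the mRNA exit channel, 0 of 296 coding stretches occurred at 1 place and all 296 at more places. In *RPS29*, a small zinc-binding protein of the same subunit, 13 of 119 occurred at 1 place, 61 at more places, and 45, which cross exon borders, at no place. As reads with several positions were discarded by the authors, the counts of parents such as *RPS26* and of their closest copies cover only part of their sequence. The libraries read the 3′ end of transcripts, whereas only the coding sequence of parents was looked up here. All counts of parent and pseudogene pairs given here are therefore uncertain by an amount that these shares do not measure. In the counts as deposited, 10 members of 5 parents had more counts than the parent itself. *RPS10P3* had 524 to 705 counts per 100 counts of *RPS10* in the 5 libraries, and *RPS23P8* had 748 to 1515 counts per 100 of *RPS23* in the knockout libraries. *RPL17P6*, named here after its values were seen, had 486 to 2121 counts per 100 of its parent *RPL17*, which had only 7 to 19 counts in a library. *RPS10* shares exons with *RPS10-NUDT3* and *RPL17* with *RPL17-C18orf32*, and reads in shared exons may not have been counted for either gene.

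To compare knockout and control pools, all 14391 genes that passed edgeR's filter on low counts were tested together with edgeR's quasi-likelihood test. A gene was called differentially expressed if its Benjamini-Hochberg adjusted p-value was under 0.05 and its log2-fold change exceeded 1 in either direction. All 244 members and 70 parents were among the tested genes. More pseudogenes were higher than lower in the knockout pools. Of the members, 43 (17.6%) were differentially expressed and higher in the knockout, against 4.17% of all tested genes, and 6 (2.46%) were lower, against 1.01%. The median log2-fold change was 0.97 in members (quartiles 0.18 and 2.12, 196 positive and 48 negative) and −0.03 in all tested genes. In 127 members (52.0%), every knockout pool was above both control pools, against 22.2% of all tested genes, and in 18 (7.38%) every knockout pool was below both, against 19.2%. A pseudogene with few control counts can pass the minimum through the deeper and more numerous knockout libraries alone, so the counts and the median of members depend on the rule. At most 9 counts were found in both control libraries together for 29 members. In the 151 members with at least 10 counts in every library, the median log2-fold change was 0.50, and 14 were differentially expressed and higher and 5 lower in the fit over all genes, against 3.91% and 0.969% of the 10734 genes with such counts. With no minimum, counts of all 1029 candidates together took 0.740% and 0.578% of the control libraries and 1.24%, 0.794%, and 0.931% of the sgMTSS1_1, sgMTSS1_2, and sgMTSS1_3 libraries, but members supplied most of these counts, and this is no independent check of the rule.

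The sgMTSS1_1 library weighed on these calls. It was the highest of the 3 knockout libraries for 214 of the 244 members and for 67 of the 70 parents, and it was also the deepest. Without it, 6 members were differentially expressed and higher and 0 lower, against 0.801% and 0.0299% of all genes tested, as calls became fewer in the whole table, and the median log2-fold change of members was 0.57. Without the sgMTSS1_3 library, 15 were higher and 1 lower (1.38% and 0.0601% of all genes), and without the sgMTSS1_2 library 32 and 1 (2.41% and 0.179%). When the fit was restricted to genes with at least 10 counts in every library, the same 151 members were tested and 18 were higher and 4 lower (4.55% and 1.05% of all genes). DESeq2 called 81 members higher and 9 lower, against 7.08% and 2.35% of all genes.

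Of the 70 parent genes, 11 were differentially expressed and higher in the knockout (15.7%) and 0 lower, against 4.17% and 1.01% of all tested genes. At an unadjusted p-value under 0.05 in edgeR, 34 were higher and 2 lower, and the share over all genes was not taken. DESeq2 called 29 parents higher and 1 lower, against 7.08% and 2.35% of all genes. Without the sgMTSS1_1 library, edgeR called 1 parent higher, against 0.801% of all genes tested. The median log2-fold change of parents was 0.87 (quartiles 0.19 and 1.60). The 11 were *RPS27A*, which is made as a fusion with ubiquitin, *RPS29*, *RPL7A*, *RPL3* at the peptidyl transferase center, *RPL36*, *RPSA*, which is also known as a laminin receptor precursor, *RPLP0* of the ribosomal stalk, *RPS26*, *RPS24*, *RPL13A*, and *RPL15*. Their log2-fold changes ranged from 1.43 in *RPL15* to 3.19 in *RPS29*. Ribosomal protein genes together took 7.48% and 8.98% of the control libraries and 17.6%, 11.8%, and 13.8% of the knockout libraries.

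Relative to their parents, the pseudogenes did not separate the groups. Members held 0.660% (95% Wilson interval 0.650 to 0.669) and 0.536% (0.529 to 0.544) of the control libraries, and 1.16% (1.15 to 1.17), 0.742% (0.735 to 0.749), and 0.867% (0.859 to 0.874) of the sgMTSS1_1, sgMTSS1_2, and sgMTSS1_3 libraries. Per 100 counts of the 70 parents, there were 9.90 and 6.61 member counts in control pools 1 and 2, against 7.45, 7.13, and 7.12 in the knockout pools. The means were 8.25 ± 2.33 (SD, n = 2) and 7.23 ± 0.18 (SD, n = 3), and the knockout values lay between those of both control pools. The difference, −1.02, turned to 0.63 when control pool 1 was left out. Intervals cover counting error only and take every read as an independent count. Whether reads carried molecular identifiers and how duplicates were handled is not given, so the intervals can be too narrow.

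**Figure D2:**
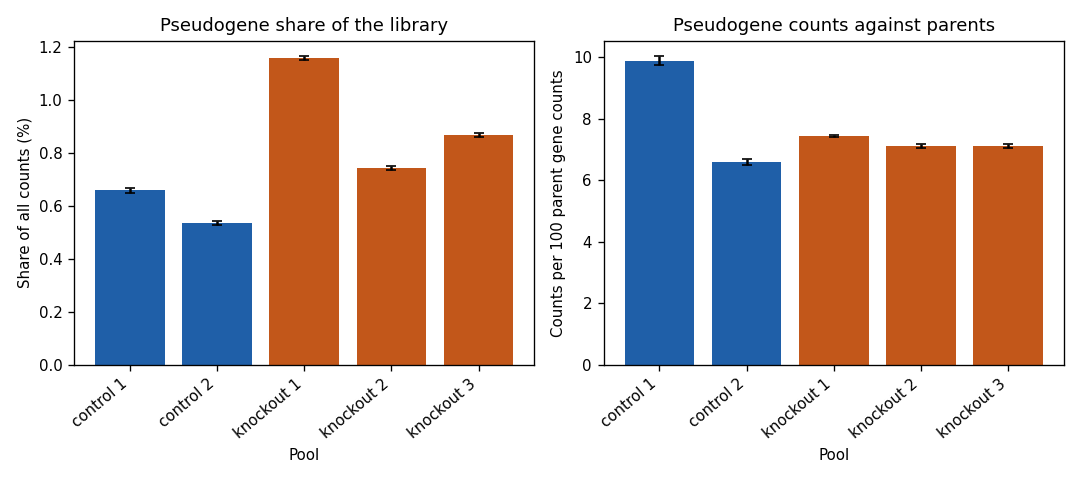
Counts of the 244 members as a share of all counts of the library in percent (left) and per 100 counts of their 70 parent genes (right) in each pool, with 95% Wilson intervals. Knockout 1, 2, and 3 are the sgMTSS1_1, sgMTSS1_2, and sgMTSS1_3 pools. The share of the library was 0.536 to 0.660% in control and 0.742 to 1.16% in knockout pools, while counts per 100 parent counts overlapped between the groups.

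Single pseudogenes departed from their parents in both directions. Across the 244 members, which share parents and libraries, the log2-fold changes of member and parent had a Pearson's r of 0.25 and a Spearman's rho of 0.23, given as a description. The log2-fold change of a member exceeded that of its parent in 125 members and fell short of it in 119 (*RPS29P5*, with 0 control counts, is among the 125 by its fitted value and below the parent at its lower bound), with a median difference of 0.07 and quartiles of −0.85 and 1.25. It lay within 1 of the parent's in 123 members, more than 1 above it in 69, and more than 1 below it in 52. Standard errors had a median of 0.51 in members and 0.43 in parents, so that differences of this size were partly within the error, and the differences were not tested one by one. The median difference moved to −0.45 when only genes with at least 10 counts in every library were fitted. Of the 43 members that rose, 12 had a parent that rose and 31 a parent that did not pass the test. The 11 parents that rose had 45 members, of which 38 had a positive log2-fold change and 12 were differentially expressed and higher. All 6 members that fell had a parent with a positive log2-fold change, and in 2 of them the parent rose.

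**Figure D3:**
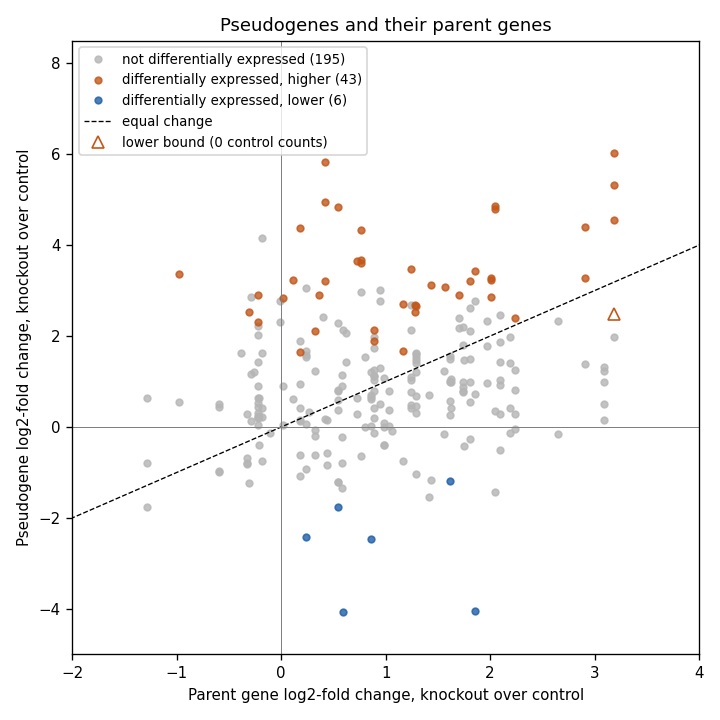
Log2-fold change of each of the 244 pseudogenes (y axis) against that of its parent gene (x axis), knockout over control, with a dashed line of equal change and a triangle at the lower bound of *RPS29P5*, which had 0 control counts. Of the 43 pseudogenes that were differentially expressed and higher, 31 had a parent that did not pass the test, and the 6 that were lower all lie below the line at a positive parental change.

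The pseudogenes with the most counts behaved in several ways. *RPS23P8* (ENSG00000230629, chromosome X, 70962964 to 70963293, outside any other annotated gene) copies *RPS23*, a protein of the decoding center, with 3 base differences in 330 bases. It was at 81.9 and 29.2 CPM in control pools 1 and 2, against 780, 410, and 529 CPM in the pools of sgMTSS1_1 to sgMTSS1_3. All knockout pools were far above both control pools (log2-fold change 3.37 ± 0.53 SE, edgeR adjusted p = 0.0130). Its parent took the other direction, with *RPS23* at 109 and 96.0 CPM in the control, against 51.5, 54.9, and 50.3 CPM in the knockout pools, a log2-fold change of −0.98 that did not pass the test (edgeR adjusted p = 0.0680). *RPS23P8* thus had 74.9 and 30.4 counts per 100 of *RPS23* in the control pools, against 1515, 748, and 1052 in the knockout pools. Without the sgMTSS1_1 library, the log2-fold change of *RPS23P8* was 3.07 and it was no longer called.

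*RPL8P4* (chromosome 3, 174377244 to 174378005) differs from *RPL8*, a large subunit protein, at 75 bases in 762 and contains no 50-base stretch of the parent that is particular to it in the genome. Its levels were 70.7 and 124 CPM in the control pools, against 512, 366, and 572 CPM in the knockout pools. The groups did not overlap (log2-fold change 2.31 ± 0.39 SE, edgeR adjusted p = 0.0156), and *RPL8* itself had a log2-fold change of −0.22. The call of *RPL8P4* was lost without the sgMTSS1_1 library or without the sgMTSS1_3 library, at log2-fold changes of 2.26 and 2.20. *RPL11P3* was at 77.9 and 36.1 CPM in the control, against 443, 274, and 382 CPM in the knockout pools. It rose by a log2-fold change of 2.69 ± 0.43 SE, while its parent *RPL11*, a protein that can bind MDM2, had 1.29 and did not pass the test.

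*RPLP0P9* was at 19.4 and 46.5 CPM in the control, against 496, 219, and 241 CPM in the knockout pools. It rose together with its parent *RPLP0*, with log2-fold changes of 3.27 and 2.01. Both other pseudogenes of *RPLP0* with enough counts, *RPLP0P6* and *RPLP0P10*, also rose, by log2-fold changes of 3.24 and 2.86, from 4 and 5 counts in both control libraries together. *RPLP0P6* and *RPLP0P10* reached the minimum through their knockout counts, so that their rise beside *RPLP0P9* depends on the rule for members. *RPS7P1* (43.1 and 13.1 CPM in the control, 432, 154, and 193 CPM in the knockout pools) and *RPL3P2* (54.1 and 30.7 CPM in the control, 305, 158, and 205 CPM in the knockout pools) rose as well, by log2-fold changes of 3.21 and 2.39. The control and knockout values of these genes did not overlap.

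Other pseudogenes with as many counts stayed within the spread. *RPS18P5*, with 6 differences from *RPS18* in 459 bases, was at 430 and 517 CPM in the control, against 573, 364, and 337 CPM in the knockout pools. These values overlapped (log2-fold change −0.16 ± 0.34 SE, edgeR adjusted p = 0.827). *RPS18*, a protein at the head of the small subunit, was at 412 and 652 CPM in the control, against 6569, 1592, and 1871 CPM in the knockout pools, with a log2-fold change of 2.65 that did not pass the test (edgeR adjusted p = 0.0533). *RPS10P3*, *RPS2P5*, and *RPL10P3* also overlapped between the groups, with log2-fold changes of 0.17, −0.57, and 0.10. *RPL3P4* did not overlap, at 100.1 and 76.0 CPM in the control, against 259, 162, and 206 CPM in the knockout pools, but its log2-fold change of 1.25 did not pass the test (edgeR adjusted p = 0.0604). *RPS14P8*, on the opposite strand to *SEMA6A*, was lower in every knockout pool, at 216 and 294 CPM in the control, against 129, 79.8, and 53.4 CPM in the knockout pools. Its log2-fold change of −1.55 lay just outside the threshold (edgeR adjusted p = 0.0502), while *RPS14* had 1.42. *RPS14P8* passed the threshold under 6 of the alternatives run. *RPS14P8* and *RPS14* can be compared over positions 178 to 277 of the coding sequence (*RPS14P8* at chr5:116562736-116562835, plus strand), where capitals mark the 10 differences.
RPS14: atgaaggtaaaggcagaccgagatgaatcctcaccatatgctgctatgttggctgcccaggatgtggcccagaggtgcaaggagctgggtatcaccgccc
RPS14P8: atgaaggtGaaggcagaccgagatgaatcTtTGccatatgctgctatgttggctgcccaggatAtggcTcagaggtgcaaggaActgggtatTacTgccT

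**Figure D4:**
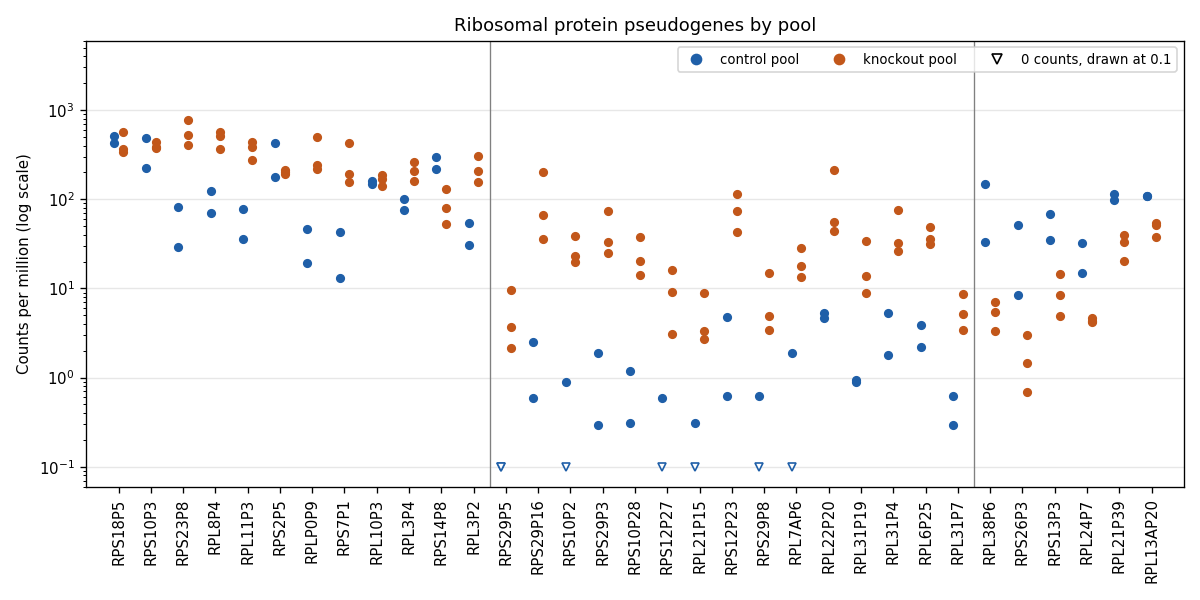
Level in CPM (log scale) of 33 pseudogenes in each control and knockout pool, with open triangles at 0.1 for pools with 0 counts. The 12 pseudogenes with the highest levels stand left of the first line. Between the lines are those with the largest rises among the differentially expressed members, and on the right the 6 that fell.

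Pseudogenes of *RPS29* were among those with the largest rises, from few or no control counts. *RPS29* was at 365 and 97.4 CPM in control pools 1 and 2, against 3279, 1298, and 1737 CPM in the knockout pools, a log2-fold change of 3.19 ± 0.66 SE (edgeR adjusted p = 0.0280). Of its 5 members, 4 were differentially expressed and higher, but all 5 reached the minimum through their knockout counts, so that this tally depends on the rule. *RPS29P16*, on the same strand within an intron of *PSMC2* (chromosome 7, 103348601 to 103348771), had 8 and 2 counts in the control libraries, against 1546, 198, and 378 in the knockout libraries. These correspond to 2.50 and 0.596 CPM and to 201, 35.7, and 65.8 CPM (log2-fold change 6.02 ± 0.95 SE, edgeR adjusted p = 0.0129). *RPS29P16* was called whichever library was left out, at log2-fold changes of 5.02 to 7.36. *RPS29P3* had 6 and 1 counts in the control, against 569, 139, and 191 in the knockout libraries, a log2-fold change of 5.33. Per 100 counts of *RPS29*, *RPS29P16* had 0.686 and 0.612 in the control, against 6.12, 2.75, and 3.79 in the knockout pools.

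*RPS29P5* had 0 counts in both control libraries and 74, 12, and 21 in the knockout libraries. It was at least 5.61-fold higher in the knockout, set against 3 counts in each control library. *RPS29P8* had 2 and 0 counts in the control, against 114, 19, and 28 in the knockout libraries, a ratio of 27.8 with a 95% counting interval of 7.56 to 231. *RPS29P11* had 8 and 1 counts in the control, against 75, 14, and 24 in the knockout libraries, with a log2-fold change of 1.99 that did not pass the test (edgeR adjusted p = 0.203). At 2.50 and 0.298 CPM against 9.73, 2.53, and 4.18 CPM, its groups nearly met. All 5 copies carry base differences from the parent, but only a read that covers such a difference can be told from a parent read. In *RPS29P16*, 13 of the 122 stretches of 50 bases were identical to the parent mRNA and occurred at more places in the genome. A single place was found for 95 of the 122. The differences are shown in capitals over positions 31 to 150 of the coding sequence.
RPS29: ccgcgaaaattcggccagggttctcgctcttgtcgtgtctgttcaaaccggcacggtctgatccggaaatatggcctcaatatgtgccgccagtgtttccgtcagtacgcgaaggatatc
RPS29P16: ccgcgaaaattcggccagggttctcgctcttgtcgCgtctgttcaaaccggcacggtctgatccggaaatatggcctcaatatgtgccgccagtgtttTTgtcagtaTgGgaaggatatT
RPS29P3: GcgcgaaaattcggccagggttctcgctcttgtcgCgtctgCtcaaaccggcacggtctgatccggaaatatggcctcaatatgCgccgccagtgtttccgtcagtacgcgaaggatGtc
RPS29P5: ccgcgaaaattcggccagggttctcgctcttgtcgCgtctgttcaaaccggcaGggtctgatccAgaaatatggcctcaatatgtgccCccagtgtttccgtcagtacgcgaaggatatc
RPS29P8: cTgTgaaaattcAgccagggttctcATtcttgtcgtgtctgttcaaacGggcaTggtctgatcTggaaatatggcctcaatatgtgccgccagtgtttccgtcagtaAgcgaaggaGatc
RPS29P11: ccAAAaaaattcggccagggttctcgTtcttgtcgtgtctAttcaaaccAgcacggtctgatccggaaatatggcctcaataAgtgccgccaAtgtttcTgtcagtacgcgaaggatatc
The stretches lie at chr7:103348631-103348750 (*RPS29P16*), chr3:196536562-196536681 (*RPS29P3*), chr1:175922005-175922124 (*RPS29P5*), chr2:148595188-148595307 (*RPS29P8*), and chr4:25678880-25678999 (*RPS29P11*), each on the plus strand, and *RPS29* is on the minus strand of chromosome 14. They hold 6, 5, 4, 10, and 9 differences in 120 bases. 

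Among the pseudogenes of *RPS10*, a small subunit protein near the mRNA entry, 3 of 4 rose while the parent did not pass the test. These 3 reached the minimum through their knockout counts, so that the tally depends on the rule for members. *RPS10* was at 31.6 and 70.9 CPM in the control, against 72.2, 61.9, and 71.2 CPM in the knockout pools (log2-fold change 0.42, edgeR adjusted p = 0.540). *RPS10P2*, on the same strand within *MACROD2*, had 0 and 3 counts in the control, against 297, 109, and 132 in the knockout libraries. The ratio was 61.9 with a 95% counting interval of 21.1 to 301, and the fitted log2-fold change was 5.82 ± 0.76 SE (edgeR adjusted p = 0.00754). *RPS10P28* had 1 and 4 counts in the control, against 289, 79, and 116 in the knockout libraries, with a log2-fold change of 4.94. *RPS10P9* had 6 and 2 counts in the control, against 107, 51, and 66 in the knockout libraries, with a log2-fold change of 3.21. *RPS10P3* held 10015 of the counts and was at 223 and 488 CPM in the control, against 438, 388, and 373 CPM in the knockout pools. Its knockout values lay between those of the control pools. The 4 copies and the parent are shown over positions 280 to 379 of the coding sequence, with differences from *RPS10* in capitals.
RPS10: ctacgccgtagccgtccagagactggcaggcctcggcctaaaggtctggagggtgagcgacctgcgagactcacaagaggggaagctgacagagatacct
RPS10P2: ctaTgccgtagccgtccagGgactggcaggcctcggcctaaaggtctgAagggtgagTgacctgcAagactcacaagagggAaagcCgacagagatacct
RPS10P28: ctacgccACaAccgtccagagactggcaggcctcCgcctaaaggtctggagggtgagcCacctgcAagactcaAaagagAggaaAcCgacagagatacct
RPS10P9: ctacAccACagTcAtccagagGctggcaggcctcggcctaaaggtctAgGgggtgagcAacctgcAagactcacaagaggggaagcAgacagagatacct
RPS10P3: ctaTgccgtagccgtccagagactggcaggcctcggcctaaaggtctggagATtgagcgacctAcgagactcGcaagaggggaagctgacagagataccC
These stretches lie at chr20:14757838-14757937, chr19:42670598-42670697, chr2:64665851-64665950, and chr9:88016579-88016678 in the order shown, all on the plus strand, and contain 7, 10, 11, and 6 differences.

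Further strong rises among the differentially expressed members belonged to several parents. *RPS12P23* and *RPS12P27*, copies of *RPS12*, rose by log2-fold changes of 4.80 and 4.86. *RPS12P23* had 2 and 16 counts in the control, against 872, 237, and 423 in the knockout libraries. *RPS12P27*, inside *NFATC3*, had 0 and 2 counts in the control, against 125, 17, and 52 in the knockout libraries, a ratio of 33.5 with a 95% counting interval of 9.14 to 278. The other copies of *RPS12* did not pass the test, with log2-fold changes of 0.34 in *RPS12P3* and −1.42 in *RPS12P7*. *RPL31*, a protein near the exit tunnel, had a log2-fold change of 0.76, and 3 of its 5 copies rose. *RPL31P19* rose by 4.33 and *RPL31P4* by 3.67. *RPL31P7* had 2 and 1 counts in the control, against 67, 19, and 30 in the knockout libraries, a ratio of 13.3 with an interval of 4.45 to 65.6. None of these 3 copies had at least 10 counts in every library, so that the tally depends on the rule for members. *RPL22P20* was at 4.69 and 5.36 CPM in the control, against 214, 55.6, and 44.2 CPM in the knockout pools, a log2-fold change of 4.38, while *RPL22* had 0.18. *RPL7AP6* rose by a log2-fold change of 4.40 with its parent *RPL7A* at 2.91, and *RPL6P25* by 3.65 with *RPL6* at 0.73. *RPL21P15* had 1 and 0 counts in the control, against 69, 15, and 19 in the knockout libraries, a ratio of 35.5 with an interval of 6.24 to 1417. *RPL29P4* was at 20.6 and 5.36 CPM in the control, against 142, 63.4, and 84.0 CPM in the knockout pools, and rose by a log2-fold change of 2.90 against 0.36 in *RPL29*. Of the 42 of the 43 risen members that were still tested without the sgMTSS1_1 library, 6 were called, namely *RPS29P16*, *RPS29P3*, *RPS10P2*, *RPS10P28*, *RPL22P20*, and *RPL6P25*.

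The 6 members that fell were *RPL38P6*, *RPS26P3*, *RPS13P3*, *RPL24P7*, *RPL21P39*, and *RPL13AP20*. *RPL38P6* (chromosome 2, 88428078 to 88428615) aligns to its parent over only 88 bases, and was at 147 and 33.4 CPM in the control, against 7.13, 5.42, and 3.31 CPM in the knockout pools. All knockout pools lay below both control pools, which differed widely from each other (log2-fold change −4.07 ± 0.59 SE, edgeR adjusted p = 0.0108). Without control pool 1, the log2-fold change was −2.63 and still called. *RPS26P3*, on the opposite strand to *PTPRD* on chromosome 9, was at 51.0 and 8.34 CPM in the control, against 2.98, 1.44, and 0.696 CPM in the knockout pools, a log2-fold change of −4.05 ± 0.75 SE (edgeR adjusted p = 0.0208). This call was lost without control pool 1, at −2.22, and without each of the knockout pools. Its parent *RPS26* and its fellow copy *RPS26P28* both rose, by log2-fold changes of 1.85 and 3.43. *RPS26P28* was at 1.25 and 0.894 CPM in the control, against 16.3, 6.50, and 12.2 CPM in the knockout pools, opposite to *RPS26P3*. *RPS26P8* and *RPS26P31* had log2-fold changes of 0.73 and 2.78 and did not pass the test. *RPS26P28* and *RPS26P3* each differ from *RPS26* at 2 bases within positions 40 to 159 of the coding sequence, shown in capitals.
RPS26: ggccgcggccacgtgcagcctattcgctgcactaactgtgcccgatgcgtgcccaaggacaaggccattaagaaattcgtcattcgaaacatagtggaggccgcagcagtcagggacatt
RPS26P28: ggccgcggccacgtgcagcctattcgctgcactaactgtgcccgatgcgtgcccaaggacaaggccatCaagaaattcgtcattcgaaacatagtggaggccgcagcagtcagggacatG
RPS26P3: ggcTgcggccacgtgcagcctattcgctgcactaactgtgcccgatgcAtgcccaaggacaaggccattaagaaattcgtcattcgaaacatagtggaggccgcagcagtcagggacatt
The stretches lie at chr5:16902483-16902602 on the minus strand and at chr9:9090937-9091056 on the plus strand. A read covering none of these differences fits more than 1 of these places.

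*RPS13P3* was at 69.1 and 35.2 CPM in the control, against 14.7, 8.49, and 4.87 CPM in the knockout pools, a log2-fold change of −2.46, while *RPS13*, which is bound early in small subunit assembly, had 0.86. *RPL24P7* was at 32.2 and 14.9 CPM in the control, against 4.67, 4.33, and 4.18 CPM in the knockout pools, a log2-fold change of −2.41. *RPL21P39* was at 98.8 and 114 CPM in the control, against 40.2, 33.6, and 20.2 CPM in the knockout pools, a log2-fold change of −1.76, in contrast to *RPL21P15* of the same parent. *RPL13AP20* was at 110 and 108 CPM in the control, against 37.7, 51.6, and 53.8 CPM in the knockout pools, a log2-fold change of −1.19, while *RPL13A*, whose product is known for its part in interferon-dependent translational silencing, rose by 1.62. In all 4, every knockout pool lay below both control pools. None of the 6 calls was kept without the sgMTSS1_1 library. *RPS13P3* (chr2:42469817-42469916, plus strand) carries 16 differences from the first 100 coding bases of *RPS13*.
RPS13: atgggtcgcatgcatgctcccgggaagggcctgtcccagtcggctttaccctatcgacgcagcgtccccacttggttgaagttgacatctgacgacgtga
RPS13P3: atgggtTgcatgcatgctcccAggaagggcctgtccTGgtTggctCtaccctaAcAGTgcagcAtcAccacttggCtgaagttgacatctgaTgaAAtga
*RPL21P39* (chr3:145824583-145824682, minus strand) and *RPL21P15* (chr15:64631434-64631533, minus strand) carry 3 and 6 differences from *RPL21* over positions 58 to 157.
RPL21: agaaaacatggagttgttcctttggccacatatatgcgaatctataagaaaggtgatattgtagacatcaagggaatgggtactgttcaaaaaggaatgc
RPL21P39: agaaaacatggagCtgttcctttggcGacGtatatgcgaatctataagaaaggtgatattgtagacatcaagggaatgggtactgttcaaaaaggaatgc
RPL21P15: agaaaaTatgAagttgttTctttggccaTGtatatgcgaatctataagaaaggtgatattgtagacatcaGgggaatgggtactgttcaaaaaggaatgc

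Copies of the same parent differed among themselves. Of the 60 parents with at least 2 members, 31 had members on both sides of 0, and the range of log2-fold changes within a parent had a median of 2.45. *RPL7*, which had the most members, had 11 with log2-fold changes of −0.14 to 1.98 around a parental value of 0.88, and 1 of them rose. The 9 members of *RPL21* spread from −1.76 to 4.84 (*RPL21P15*, with 1 control count) around 0.54, and the 9 of *RPL22* from −1.09 to 4.38 around 0.18. The 8 members of *RPL5*, a protein of the 5S ribonucleoprotein particle, were all positive, from 0.41 to 3.48, with the parent at 1.24. The 7 members of *RPL13A* ranged from −1.19 to 1.56 and all lay below the parental 1.62. In *RPS27A*, named here after its values were seen, the parent had a log2-fold change of 3.09 ± 0.46 SE (edgeR adjusted p = 0.0111), and its 5 members had 0.15 to 1.33 and none was called. The plot of pseudogenes by parent shows these spreads.

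**Figure D5:**
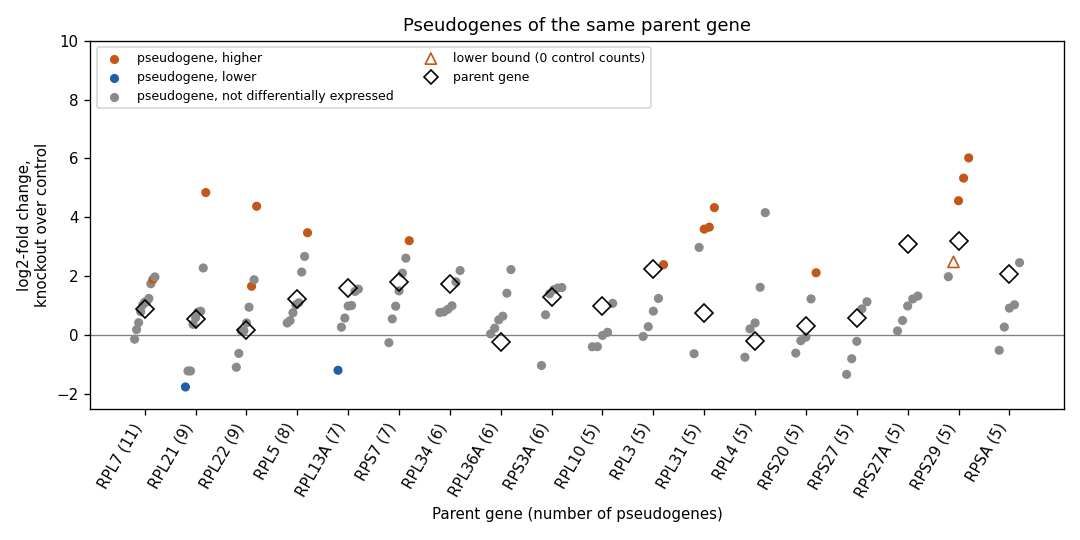
Log2-fold change, knockout over control, of each pseudogene (points) and of its parent gene (open diamonds) for the 18 parents with at least 5 members. Copies of *RPS29* with control counts lie between 1.99 and 6.02, *RPS29P5* with 0 control counts is drawn as a triangle at its lower bound of 5.61-fold, those of *RPL7* between −0.14 and 1.98, and all 5 copies of *RPS27A* below their parent.

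The largest gaps between member and parent among the 151 members with at least 10 counts in every library were those of *RPS23P8* (log2-fold change 4.34 above the parent), *RPL22P20* (4.20), *RPL29P4* (2.53), *RPL8P4* (2.53), and *RPS11P5* (2.02) on one side. On the other side were *RPL38P6* (−4.67), *RPS12P7* (−3.47), *RPS13P3* (−3.32), *RPS14P8* (−2.97), and *RPS27AP6* (−2.94). *RPS27AP6* was itself flat, at 3.75 and 4.77 CPM in the control, against 5.45, 3.61, and 5.05 CPM in the knockout pools.

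Members were also grouped by sequence and by position, and differences between these groups were not tested. The 70 members with 50-base stretches shared across a parental exon border had a median log2-fold change of 1.05 (19 called higher and 0 lower by edgeR, median difference from the parent −0.09), and the other 174 had 0.93 (24 called higher and 6 lower, median difference 0.09). Members with at least 97% identity (81) and under 93% identity (65) had medians of 0.97 and 0.95. Another annotated gene overlapped 128 members, on the same strand in 62 and on the opposite strand in 79. Overlapping members had a median log2-fold change of 0.73 (22 higher, 2 lower) and the 116 others 1.13 (21 higher, 4 lower). Reads from introns of a host gene on the same strand cannot be told from those of the pseudogene. Of the 62 members with a same-strand overlap, 29 were set against a tested host gene. Of these 28 host genes, 0 were differentially expressed by edgeR or DESeq2. Among all tested genes, edgeR called 4.17% higher and 1.01% lower and DESeq2 7.08% and 2.35%, so that few calls would fall among 28 genes in any case. An unadjusted p-value under 0.05 in edgeR was found in 5 hosts, and the share over all genes was not taken. Whether host reads contributed to the pseudogene counts was not tested. The hosts *PSMC2* of *RPS29P16*, *MACROD2* of *RPS10P2*, and *NFATC3* of *RPS12P27* had log2-fold changes of 0.93, −0.48, and −0.85.

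Processed pseudogenes of other families were counted in the same way. Of 469 other processed pseudogenes with at least 100 summed counts, 70 (14.9%) were differentially expressed and higher in the knockout and 25 (5.33%) lower. The shares of all tested genes were 4.17% and 1.01%. As the minimum was the same, a pseudogene could pass it through the knockout libraries alone, and these tallies depend on the rule as well. These 469 had a median log2-fold change of 0.21. Their share of the library was 1.15% and 1.34% in the control, against 1.88%, 1.42%, and 1.46% in the knockout pools. The 4 copies of *EEF1A1*, the elongation factor that brings aminoacyl-tRNA to the ribosome, had log2-fold changes of −2.01 to −0.88, with the gene itself at −1.43. The 4 copies of *GAPDH*, a glycolytic enzyme, had 2.23 to 3.53 and 2 of them rose, while *GAPDH* had −0.17. The 5 copies of *NPM1*, a nucleolar chaperone, ranged from −1.36 to 4.99 around 0.64. The other families fixed for comparison had at most 3 copies with enough counts.

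At the minimum, *RPS27P19* and *RPS7P8* with 100 summed counts and *RPS6P21* with 102 were the members with the fewest counts, and had log2-fold changes of 1.13, 2.11, and 0.46. Just below it, *RPS27AP2* and *RPS6P26* with 96 and *RPL7P19* with 95 summed counts had −1.07, 0.22, and 0.46. None of the 6 passed the test in edgeR's fit.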

How the data were processed

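The 5 TF-1 libraries were made with a QuantSeq 3′ mRNA kit, which reads the 3′ end of polyadenylated transcripts. The authors trimmed single-end reads with BBDuk, aligned them to GRCh38 with HISAT2 2.1.0, removed reads without a unique position with SAMtools 1.10, and deposited raw counts for each Ensembl identifier. Which program counted them, with which annotation, with or without strand, and how duplicates were handled is not given in the sources used here.

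Counts were normalized with TMM in edgeR 4.0.16 (R 4.3.3), filtered with filterByExpr at a minimum count of 10, and tested over 14391 genes with the quasi-likelihood test and Benjamini-Hochberg adjustment, with condition as the only term. Standard errors (SE) are the log2-fold change over the square root of the F statistic. The test was checked on simulated data. Members and gene lists were chosen with earlier results of these data known. Genes named are the 12 members with the highest mean CPM, members past both thresholds (at most 15 per direction), the 5 largest differences from the parent in each direction among members with at least 10 counts in every library, the 3 on each side of the minimum, the 5 parents with most members, their parents, and further copies of the same parents. Positions, gene types, and transcripts are from GENCODE release 44 on GRCh38, in which 27211 genes of the table have a symbol. Identity was taken from local alignments made with Biopython 1.88. The largest total was more than 3 times the smallest, and thinning to the smallest was 1 of the alternatives, with DESeq2 1.42.0, other normalizations, filters and memberships, a replicate block, and each replicate left out. Fold changes of genes without control counts depend on the prior count. Some results are not reported here.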

Additional observations from a re-analysis of the deposited data

How the results depend on the processing

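The number of members differentially expressed and higher, 43 as reported, was 81 with DESeq2 (7.08% of all genes) and 90 with no filter (4.29%). It was 81 with the replicate block (6.21%), 18 with at least 10 counts in every library (4.55%), and 39 with libraries thinned to the smallest total (4.37%). With members overlapping another gene left out, 21 remained in the same fit. With 1 replicate left out, it ranged from 6 (0.801%, without the sgMTSS1_1 library) to 63 (5.93%, without control pool 1). Without control pool 2, it was 30 (3.64%). The number lower, 6, was 0 to 9 with 1 replicate left out. It was 9 without control pool 2 (1.4% of all genes), 0 without the sgMTSS1_1 library (0.0299%), and 1 without the sgMTSS1_2 (0.179%) or the sgMTSS1_3 library (0.0601%). The number of parents higher, 11, was 29 with DESeq2, 28 with no filter, and 1 to 18 with 1 replicate left out, against the same shares of all genes. The median difference between member and parent, 0.07, was −0.45 with at least 10 counts in every library, where 151 members are tested. The medians of members (0.57 to 1.29) and parents kept their sign under every alternative run. The difference in counts per 100 parent counts ranged from −2.67 to 0.63 with 1 replicate left out, and was −1.37 over all candidates, a choice made after seeing the data. With library sizes in place of TMM factors, the median over all genes went from −0.03 to −0.17. In that fit, 45 members were called higher and 9 lower (3.95% and 1.61% of all genes), with *RPL10P3* at −0.052. All 43 risen members kept a positive log2-fold change under every alternative in which they were tested, but they had been chosen for a rise in the same libraries, so this is no independent support. Only 14 of the 43 had at least 10 counts in every library, and these 14 stayed called in that fit. Without the sgMTSS1_1, sgMTSS1_2, and sgMTSS1_3 libraries, 6, 31, and 15 of the 43 stayed called. The replicate numbers 1 and 2 occur in both groups with no stated shared handling, and control pool 1 minus 2 correlated with sgMTSS1_1 minus sgMTSS1_2 across genes at r = 0.17 and with sgMTSS1_1 minus sgMTSS1_3, whose numbers do not match, at 0.19. With 1 library left out, the sign of these log2-fold changes near 0 turned: *RPS18P5* (−0.44 to 0.020), *RPS10P3* (−0.28 to 0.87), *RPS2P5* (−1.04 to 0.21), *RPL10P3* (−0.0047 to 0.24), *RPS27AP6* (−0.0020 to 0.36), *RPS10* (−0.039 to 1.14), *RPL8* (−0.55 to 0.26), *RPL22* (−0.084 to 0.55), *RPL24* (−0.021 to 0.59), and *RPL29* (−0.065 to 1.02). The causes were not tested.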
